A study of Mus musculus with 20 samples.

Results

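The 9 genes described here encode core proteins of the BCL2 family: the pro-survival Bcl2, Bcl2l1 (BCL-XL) and Mcl1, the BH3-only Bcl2l11 (BIM), Bid, Pmaip1 (NOXA) and Bbc3 (PUMA), and the pore-forming effectors Bax and Bak1. They were taken by symbol from the raw counts, where they are 9 of 16740 genes in pooled spleen and peripheral lymph nodes (pLNs) and 9 of 16784 genes in mesenteric lymph nodes (mLN). All 9 genes were present in both tissues and all 9 passed the filter of at least 1 count in total.

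RNA was sequenced from Treg cells, sorted as CD4+YFP+, and from CD4+Foxp3- cells, sorted as CD4+YFP-, of WT and Tet2/3 DKO C57BL/6 mice aged 14 weeks. Both genotypes carry Foxp3Cre, a YFP-Cre fusion knocked into Foxp3, and in DKO mice it deletes loxP-flanked (fl/fl) Tet2 and Tet3, which encode enzymes that oxidize 5-methylcytosine. Deletion is thus driven only where Foxp3 is or was active, so that cells of DKO mice that never expressed Foxp3 keep the undeleted floxed alleles. The YFP- gate does not separate such cells from cells that once expressed Foxp3 and the Cre. There were 2 biological replicates per group in spleen and pLNs (8 libraries) and 3 per group in mLN (12 libraries). The study describes both DKO cell types of spleen and pLNs as taken from littermates of which 1 had the more severe splenomegaly. It reports the cells of that mouse as less similar to WT, but no label ties that mouse to a library number. Each tissue was analysed on its own.

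Proteins of the BCL2 family decide whether the mitochondrial outer membrane of a cell stays intact. Pro-survival members bind and hold back the BH3-only proteins and the effectors, BH3-only proteins signal stress or loss of growth factors, and the effectors BAX and BAK, once free, open pores that release cytochrome c and start the caspase cascade. In T cells BIM and BCL2 are known to set the lifespan of resting cells under control of IL-7 and IL-2, PUMA and NOXA are known targets of p53, and MCL1 is known to be needed by Treg cells. Transcripts of these genes do not give the amounts of their proteins, several of which turn over rapidly.

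The starts of 4 of the genes are shown because Bcl2 and Bax were called in DKO Treg cells of mLN, Bcl2l11 and Bbc3 hold the forkhead motif searched, and the Bcl2 window is rich in CpG dinucleotides, where 5-methylcytosine is mostly found in mammals. The windows are the 250 bases upstream of a RefSeq transcript start, read from the RefSeq promoter table (GRCm38.p6) and found once each by exact match in NCBIM37, the mouse build of the deposited counts, whose coordinates are given. Sequences run 5′ to 3′ on the strand of the gene. Bcl2 lies on the minus strand, with its window at chr1:108610868-108611117, and capitals mark its 36 CpG.
Bcl2: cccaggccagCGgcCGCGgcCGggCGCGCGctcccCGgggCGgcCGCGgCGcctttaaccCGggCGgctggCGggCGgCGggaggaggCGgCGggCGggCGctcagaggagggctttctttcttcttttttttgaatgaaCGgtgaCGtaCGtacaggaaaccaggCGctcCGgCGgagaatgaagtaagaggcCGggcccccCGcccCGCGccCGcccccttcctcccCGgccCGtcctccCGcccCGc
Bcl2l11 lies on the plus strand (window chr2:127951524-127951773), and capitals mark GTAAACA, the core of the forkhead motif bound by FOXO factors.
Bcl2l11: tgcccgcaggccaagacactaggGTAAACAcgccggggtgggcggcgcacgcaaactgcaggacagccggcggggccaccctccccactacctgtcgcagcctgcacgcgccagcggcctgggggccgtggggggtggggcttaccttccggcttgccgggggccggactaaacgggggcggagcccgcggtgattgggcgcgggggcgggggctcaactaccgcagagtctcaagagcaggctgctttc
Bbc3 lies on the plus strand. This window (chr7:16895360-16895609) precedes 1 of its 3 RefSeq starts and falls in the first intron of the longest GENCODE M1 transcript, and capitals mark the same motif on the opposite strand.
Bbc3: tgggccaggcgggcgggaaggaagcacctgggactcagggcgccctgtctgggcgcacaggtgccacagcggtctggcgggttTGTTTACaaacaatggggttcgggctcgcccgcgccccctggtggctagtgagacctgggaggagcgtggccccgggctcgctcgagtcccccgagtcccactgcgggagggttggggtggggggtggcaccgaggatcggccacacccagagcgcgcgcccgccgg
Bax lies on the minus strand (window chr7:52722269-52722518), and capitals mark a match to the decamer unit of the p53 response element.
Bax: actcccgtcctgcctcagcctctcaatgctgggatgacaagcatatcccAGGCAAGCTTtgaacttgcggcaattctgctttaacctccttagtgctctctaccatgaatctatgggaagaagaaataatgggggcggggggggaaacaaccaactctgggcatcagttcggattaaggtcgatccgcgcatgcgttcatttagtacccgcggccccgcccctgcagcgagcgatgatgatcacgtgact

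The search covered 13 RefSeq windows for 8 of the 9 genes. It left out member windows on chromosome 18, where Pmaip1 lies, so no motif or CpG count was made for Pmaip1. GTAAACA was found on either strand in 1 Bcl2l11 window, beginning 227 bases upstream of the start, and in 1 Bbc3 window, 167 bases upstream, against 3.17% of all 32851 windows. The p53 decamer was found only in the Bax window among these 13, at 201 bases upstream, against 7.13% of all windows. TTCNNNGAA, the STAT motif, was in none of the 13 and in 7.02% of all. The Bcl2 window, extended to 50 bases past the start, held 44 CpG, more than 97.8% of all windows, whose median was 7. The corresponding counts were 33 for Mcl1, 27 and 38 for Bcl2l11, 34, 30 and 39 for Bbc3, 22 for Bid, 19 for Bax, 11 for Bak1, and 1, 14 and 22 for Bcl2l1. A match is a run of letters and was not tested as a binding site, and methylation was not analysed here.

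Libraries held 9998478 to 15449158 counts. Foxp3 stood at 153 to 419 CPM (read counts scaled to library size after TMM) in Treg libraries and at no more than 2.75 CPM in CD4+Foxp3- libraries. Gene-level counts of Tet2 and Tet3 cannot show the deletion, as reads from exons outside the floxed part are included. In mLN Tet2 stood at 10.4 to 10.8 CPM in WT and 7.69 to 12.8 CPM in DKO Treg cells and Tet3 at 69.0 to 86.5 and 48.4 to 73.3 CPM, while in spleen and pLNs Tet3 was higher in DKO (38.1 and 61.0 CPM) than in WT (31.0 and 30.6 CPM), so these values did not check the labels. DKO libraries were spread more widely than WT libraries. Distance was the mean Euclidean distance in log2 CPM, over the 500 most variable genes, to WT libraries of the same cell type. By it the farthest were the first DKO CD4+Foxp3- library of spleen and pLNs (78.8) and the second of mLN (77.4). All DKO Treg libraries of mLN lay at 69.4 to 74.9. In spleen and pLNs the DKO libraries numbered 1 were the farther in both cell types (60.1 against 45.9 in Treg and 78.8 against 38.3 in CD4+Foxp3- cells). Several results that rest on the farthest CD4+Foxp3- libraries are given with and without them below. The summed level of 10 cycling markers ranged from 156 to 241 CPM in WT and from 472 to 673 CPM in DKO mLN Treg cells, that of 6 naive markers from 3074 to 3569.7 and from 1769 to 2611 CPM, and that of 9 activated and Tfh markers from 1349 to 1375 and from 2203 to 2654 CPM. Among markers of other cells, the CD8 and NK list (4 genes) summed to 21.2 to 28.4 CPM in WT and 75.4 to 159.6 CPM in DKO mLN Treg cells, the plasma cell list (4 of 5 genes in the table) to 118 to 123 and 108 to 611 CPM, the myeloid list (6 genes) to 60.2 to 75.1 and 84.02 to 118.5 CPM, and the B cell list (5 genes, Pax5 at 0 in WT) to 26.8 to 35.4 and 8.81 to 20.8 CPM. The 5 Treg markers summed to 1878 to 2039.9 CPM in WT and 1479.8 to 1679 CPM in DKO mLN Treg cells. In spleen and pLNs the cycling markers summed to 96.2 to 103 CPM in WT and 184 to 250.3 CPM in DKO Treg cells, and the CD8 and NK list to 23.3 to 27.1 and 98.1 to 119 CPM. The naive markers summed there to 2797 to 3030 CPM in WT and 1832 to 2295 CPM in DKO Treg cells. The activated and Tfh markers summed to 1801 to 2008 and 2387 to 2507 CPM, and the B cell list to 27.7 to 29.6 and 9.83 to 13.2 CPM. In CD4+Foxp3- cells the activated and Tfh markers summed to 524 to 594 CPM in WT and 664 to 2089 CPM in DKO of mLN, and to 946 to 1181 and 1048 to 3178 CPM in spleen and pLNs. The part of these cell states and cells in the results below was not tested, and in bulk samples fewer cells expressing a gene and less RNA per cell cannot be told apart.

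Levels of different genes were compared on the deposited TPM, which is per transcript length. Mcl1 was the most abundant of the 9 transcripts in each of the 8 groups, with group means of 188 to 275 TPM in spleen and pLNs and 259 to 361 TPM in mLN, above 97.2% and 97.8% of all genes by its mean over all libraries. By group means the effectors followed in the same order in every group, Bax at 79.6 to 145.5 TPM and Bak1 at 57.2 to 112.8 TPM, but in DKO CD4+Foxp3- cells of spleen and pLNs their libraries overlapped. The BH3-only Bbc3 and Pmaip1 were the least abundant in 6 of the 8 groups, at means of 7.17 to 12.7 and 1.66 to 14.3 TPM there. The exceptions were DKO Treg cells, with Bbc3 at 27.8 TPM in spleen and pLNs and Pmaip1 at 33.0 TPM in mLN.

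The middle of the order was not the same in the tissues. In mLN WT Treg cells Bcl2 had rank 4 at 56.9 ± 3.81 TPM (SD, n = 3), above Bid at 26.1 ± 1.66 TPM and Bcl2l1 at 24.99 ± 4.02 TPM, whose libraries overlapped. In WT Treg cells of spleen and pLNs Bcl2l1 had rank 4 at 46.6 ± 2.67 TPM (SD, n = 2), above Bid at 26.5 ± 2.49 TPM and Bcl2 at 25.8 ± 0.204 TPM, which overlapped. In mLN DKO Treg cells each neighbouring pair overlapped from Bcl2 at 33.6 TPM to Bbc3 at 17.1 TPM, although every library of Bcl2, Pmaip1 and Bid lay above those of Bbc3. Levels of the 2 tissues came from tables normalized separately and are given side by side only.

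**Figure D1:**
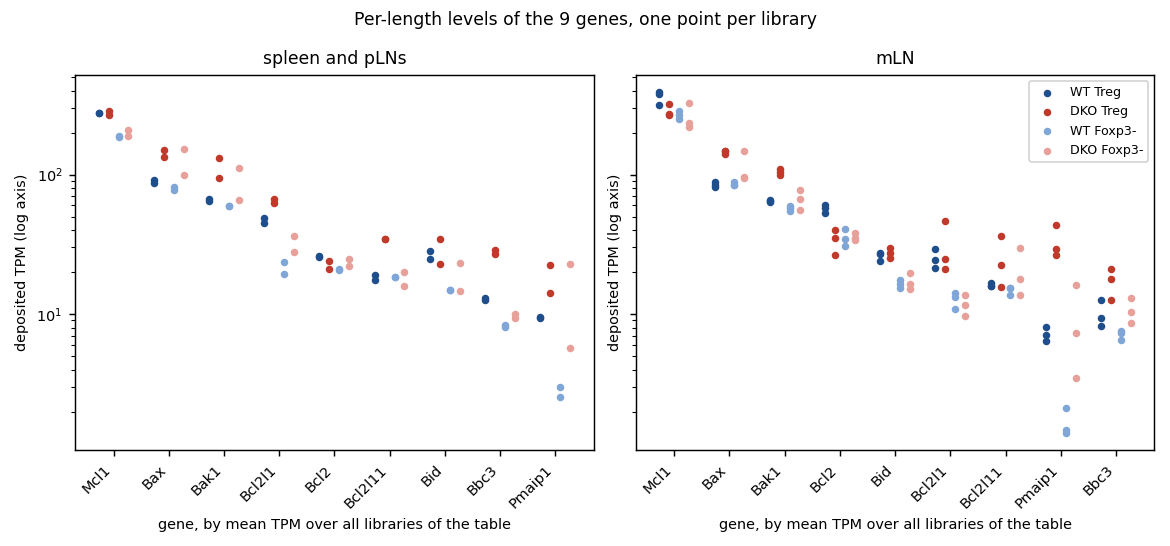
Deposited TPM (log axis) of each of the 9 genes in every library of spleen and pLNs (left) and mLN (right), 1 point per library, coloured by group and ordered by mean over the table. Mcl1, Bax and Bak1 occupy the first 3 places in both tissues, and in mLN the points of DKO groups lie farther apart than those of WT groups for Pmaip1, Bcl2l11 and Bcl2l1.

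The central comparison, DKO against WT Treg cells, showed the clearest differences in mLN. There the pro-survival Bcl2 fell and the effector Bax and the BH3-only Pmaip1 rose: 3 of the 9 genes passed the call of edgeR's quasi-likelihood test (Benjamini-Hochberg adjusted p up to 0.05, fold 1.5 or more), against 11.9% of all genes tested. Of these 2 were higher, against 8.5% of all genes, and 1 was lower, against 3.43%. In CPM the libraries of DKO and WT did not overlap for 5 of the 9 genes, against 40.5%. On adjusted p alone, Mcl1 (lower) and Bak1 (higher) also passed, making 5 of 9 against 19.4% of all genes. The median log2 fold change was -0.50 for the 3 pro-survival genes, 0.53 for the 4 BH3-only genes and 0.56 for the 2 effectors, against 0.0045 for all genes.

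Bcl2, which keeps BIM and the effectors in check, stood at 232, 242 and 249 CPM in WT Treg cells of mLN and at 126, 102 and 150.4 CPM in the DKO libraries. All 3 DKO libraries lay below all 3 WT libraries. Bcl2 was 1.91-fold lower in DKO (log2 fold change -0.93, SE 0.12, edgeR adjusted p = 0.000413), and it was called under each of the 14 alternatives run, with adjusted p of at most 0.0035.

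Mcl1, a short-lived pro-survival protein, gave 621, 712 and 731 CPM in WT but 442, 465 and 550.0 CPM in DKO mLN Treg cells. The groups did not overlap in CPM, though they did in deposited TPM (log2 ratio -0.33), and the difference passed the adjusted p but not the fold minimum (log2 fold change -0.50, SE 0.13, edgeR adjusted p = 0.0155). Without the third DKO library it was called, at -0.60 with an adjusted p of 0.0121, and without the second WT library, the third WT library or either of the other two DKO libraries it no longer passed the adjusted p (up to 0.0671). Bcl2l1, the remaining pro-survival gene, did not follow: its WT libraries stood at 38.5, 42.5 and 49.9 CPM and its DKO libraries at 37.0, 74.2 and 33.0 CPM, with a difference of 0.14 (95% interval -0.39 to 0.68). The second DKO library alone lay above WT.

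Among BH3-only genes, Pmaip1, whose product NOXA binds MCL1, had the largest difference of the 9. It stood at 10.7, 11.7 and 9.05 CPM in WT and at 53.5, 39.1 and 34.2 CPM in DKO mLN Treg cells. The lowest DKO library was well above the highest WT library, and the difference was 4.03-fold (log2 fold change 2.01, SE 0.37, edgeR adjusted p = 0.00276). Leaving out each library in turn kept it called, at log2 fold changes of 1.81 to 2.14.

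The other BH3-only genes were less clear. Bbc3 stood at 9.12, 13.6 and 9.84 CPM in WT and at 11.6, 20.8 and 17.2 CPM in DKO, so that the groups overlapped (log2 fold change 0.61, SE 0.22, edgeR adjusted p = 0.0690). Without the first DKO library Bbc3 was called, at 0.81 with an adjusted p of 0.0178. Bcl2l11, the gene of BIM, stood at 67.6, 62.0 and 60.7 CPM in WT and at 52.2, 130.02 and 77.9 CPM in DKO. Its DKO libraries lay on both sides of WT, and its difference of 0.45 had a 95% interval of -0.15 to 1.05. Bid, which links death receptors to mitochondria, gave 29.3, 24.9 and 27.0 CPM against 24.1, 28.1 and 23.2 CPM, and its interval of -0.35 to 0.15 leaves no room for a change of 1.5-fold.

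Both effectors were higher in DKO mLN Treg cells. Bax stood at 41.2, 38.8 and 40.8 CPM in WT and at 60.3, 64.0 and 59.98 CPM in DKO. The groups did not overlap and the libraries of each lay within a few CPM, with a difference of 1.53-fold (log2 fold change 0.61, SE 0.13, edgeR adjusted p = 0.00635). This is close to the fold minimum, and Bax was no longer called without the second WT library (0.58, adjusted p = 0.0322), the second DKO library (0.58, adjusted p = 0.0231) or both DKO libraries numbered 2 (0.58). Bak1 stood at 73.4, 71.8 and 68.4 CPM in WT and at 92.9, 109.1 and 101.8 CPM in DKO. It did not overlap either, and it passed the adjusted p but not the fold minimum (log2 fold change 0.51, SE 0.09, edgeR adjusted p = 0.00241).

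**Figure D2:**
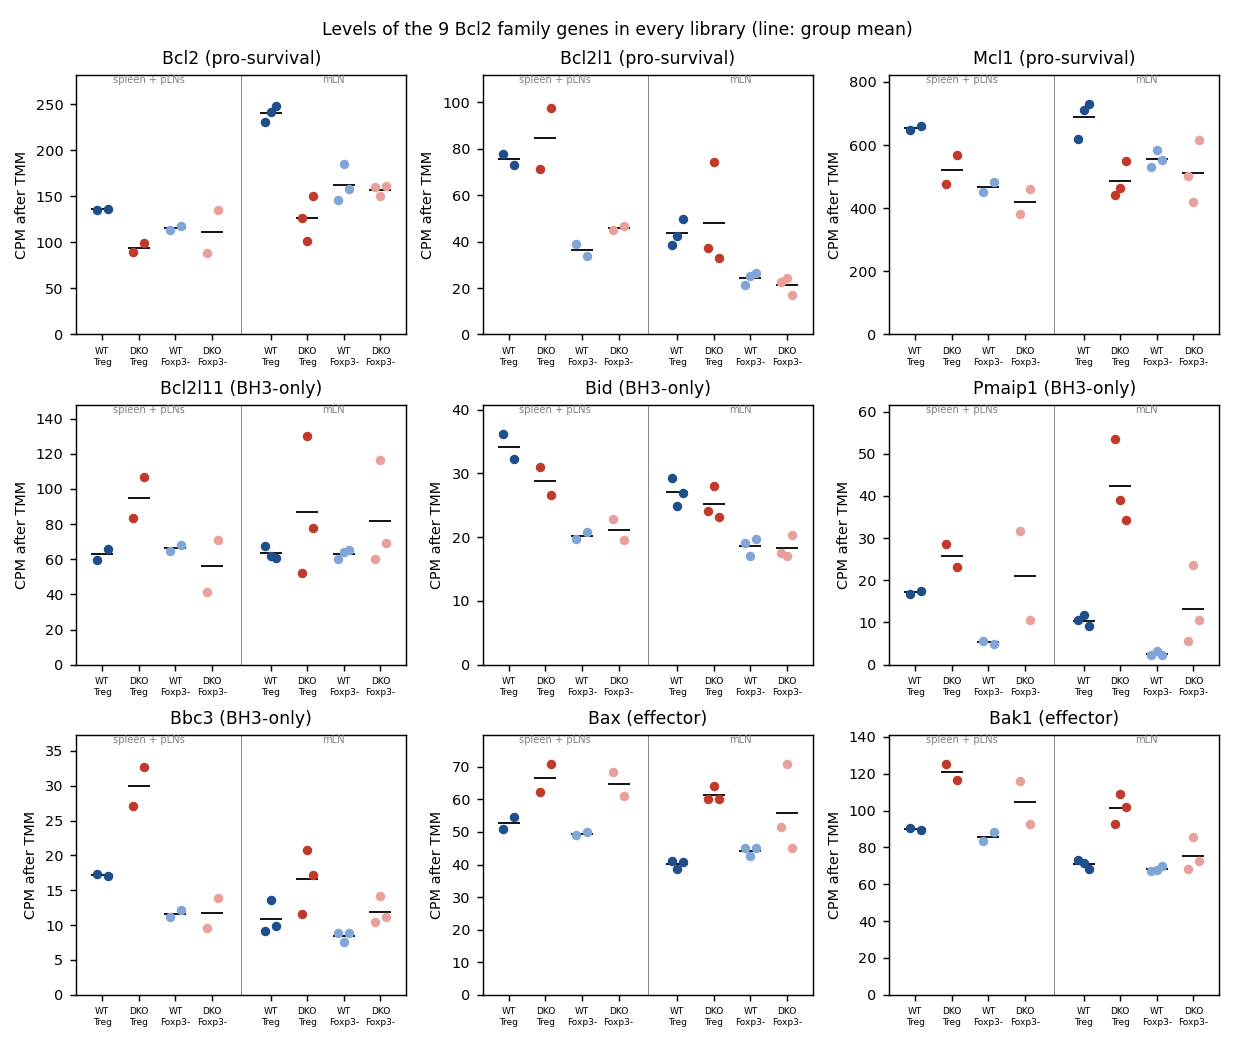
CPM after TMM of each of the 9 genes (1 panel per gene) by group, spleen and pLNs on the left and mLN on the right of each panel, with 1 point per library and a line at the group mean. In mLN, DKO Treg points of Bcl2 (102 to 150.4 CPM) lie below all WT Treg points (232 to 249 CPM), and those of Pmaip1 (34.2 to 53.5 CPM) above all WT Treg points (9.05 to 11.7 CPM).

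In Treg cells of spleen and pLNs, 0 of the 9 genes were called by edgeR, against 1.74% of all genes, while 5 of 9 had an unadjusted p under 0.05. DESeq2 called 1, Bbc3 (log2 fold change 0.81, adjusted p = 0.0377). In CPM the libraries of DKO and WT did not overlap for 8 of the 9 genes (5 higher and 3 lower in DKO), but with 2 libraries per group this was so for 54.2% of all genes. The median log2 fold change was -0.33 for the pro-survival genes, 0.59 for the BH3-only genes and 0.38 for the effectors, against 0.018 for all genes.

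Bbc3 stood at 17.3 and 17.1 CPM in WT, against 27.1 and 32.6 CPM in DKO Treg cells of spleen and pLNs (log2 fold change 0.80, SE 0.21, edgeR adjusted p = 0.0760). Bcl2l11 stood at 59.7 and 66.1 CPM in WT and at 83.6 and 106 CPM in DKO (0.60, SE 0.22, adjusted p = 0.155). Bcl2 stood at 136 and 137 CPM in WT and at 89.3 and 99.7 CPM in DKO (-0.53, SE 0.19, adjusted p = 0.142). For each of these genes both DKO libraries lay on 1 side of both WT libraries, and none passed the adjusted p with 2 libraries per group in this fit. Pmaip1, the gene with the largest difference in mLN, stood at 16.8 and 17.5 CPM in WT and at 28.5 and 23.2 CPM in DKO, with a wide interval of -0.20 to 1.39 around its log2 fold change of 0.59.

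The remaining genes of this comparison differed by less. Mcl1 stood at 649 and 659.5 CPM in WT and at 475 and 568 CPM in DKO (log2 fold change -0.33, edgeR adjusted p = 0.321). Bak1 gave 0.43 (95% interval 0.09 to 0.76), Bax 0.33 (0.02 to 0.65), Bcl2l1 0.16 (-0.21 to 0.53) and Bid -0.24 (-0.62 to 0.14). With both DKO libraries numbered 1 left out, Bcl2l11 (0.76) and Bbc3 (0.93) were called, against 8.2% of all genes, but then 1 DKO library stood for each cell type and the spread came from the WT pairs.

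These differences are relative to the bulk of genes. From CPM after TMM to the deposited TPM, the median log2 ratio of DKO to WT Treg cells over genes averaging 10 CPM or more moved from -0.06 to 0.28 (spleen and pLNs) or from -0.04 to 0.14 (mLN). Mcl1 in spleen and pLNs thus had a log2 ratio of -0.33 in CPM after TMM but equal means of 275 TPM, and relative to the median gene it was at -0.27 on either scale. Bid changed sign in both tissues in the same way. Bcl2 in mLN was at -0.93 in CPM after TMM and at -0.76 in TPM, and Bax at 0.61 and 0.78. In spleen and pLNs Bcl2 was at -0.53 in CPM after TMM but at -0.20 in TPM, and relative to the median gene at -0.47 on either scale. The directions given for Bcl2, Pmaip1, Bax, Bak1, Bbc3 and Bcl2l11 in DKO Treg cells held on both scales.

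The question in CD4+Foxp3- cells is whether the 9 genes also differed outside the YFP+ gate in DKO mice. Pmaip1 was the 1 gene called in each tissue, against 0.819% of all genes in spleen and pLNs and 3.43% in mLN. In mLN Pmaip1 stood at 2.38, 3.31 and 2.19 CPM in WT and at 5.68, 23.6 and 10.5 CPM in DKO. The DKO libraries were all higher and differed among themselves by more than WT did (log2 fold change 2.32, SE 0.42, edgeR adjusted p = 0.0122). Without the second DKO library, the one farthest from WT, the log2 fold change was 1.60 with an adjusted p of 0.00663. Leaving out any 1 WT library ended the call (adjusted p of 0.0726, 0.0541 and 0.0680 on leaving out libraries 1, 2 and 3), as did edgeR with the 2 groups compared (0.112).

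In spleen and pLNs Pmaip1 stood at 5.54 and 4.98 CPM in WT and at 31.6 and 10.6 CPM in DKO CD4+Foxp3- cells (log2 fold change 2.004, SE 0.39, edgeR adjusted p = 0.0430). The difference rested largely on the first DKO library, the farthest from WT: without it the log2 fold change was 1.003 (adjusted p = 0.0859). It was not called either without the first (adjusted p = 0.438) or the second WT library (0.737), with filterByExpr, the robust prior or the replicate block, or by edgeR with the 2 groups compared. Without both DKO libraries numbered 1 it was called at 1.01. Bcl2l11 gave -0.24 with overlapping libraries, and its direction depended on the library left out: -0.68 without the second DKO library and 0.089 without the first. From WT to DKO CD4+Foxp3- cells, the summed level of Treg markers went from 199 to 220.4 CPM to 226 to 707 CPM in spleen and pLNs, and that of cycling markers from 76.6 to 79.1 CPM to 109 to 233 CPM. There the plasma cell list (3 of 5 genes in the table) went from 87.1 to 92.7 CPM to 126 to 324 CPM, the CD8 and NK list from 72.8 to 113.4 CPM to 113.96 to 216 CPM and the naive markers from 4570.1 to 4991 CPM to 2000.2 to 3908 CPM. For mLN the Treg markers went from 133 to 137 CPM to 177 to 348 CPM, the cycling markers went from 80.9 to 99.4 CPM to 152 to 197 CPM, the plasma cell list from 61.4 to 71.5 CPM to 77.97 to 699.7 CPM and the CD8 and NK list from 29.8 to 34.2 CPM to 40.4 to 140.5 CPM. Their part in the Pmaip1 difference was not tested.

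The other 8 genes were not called in CD4+Foxp3- cells in edgeR's fit. Bcl2 stood at 146, 185 and 158 CPM in WT and at 160.1, 151 and 162 CPM in DKO cells of mLN, a difference of -0.05 with a 95% interval of -0.32 to 0.22. The groups overlapped throughout, and the interval does not reach the difference seen in Treg cells. Bax gave 0.34 (0.06 to 0.62) in mLN and 0.39 (0.07 to 0.71) in spleen and pLNs, and Bak1 gave 0.15 (-0.05 to 0.34) and 0.29 (-0.05 to 0.62). Bcl2l11 in mLN stood at 60.1, 64.1 and 65.1 CPM in WT and at 60.1, 116 and 69.2 CPM in DKO. The second DKO library was again the high one, as in Treg cells of the same number.

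**Figure D3:**
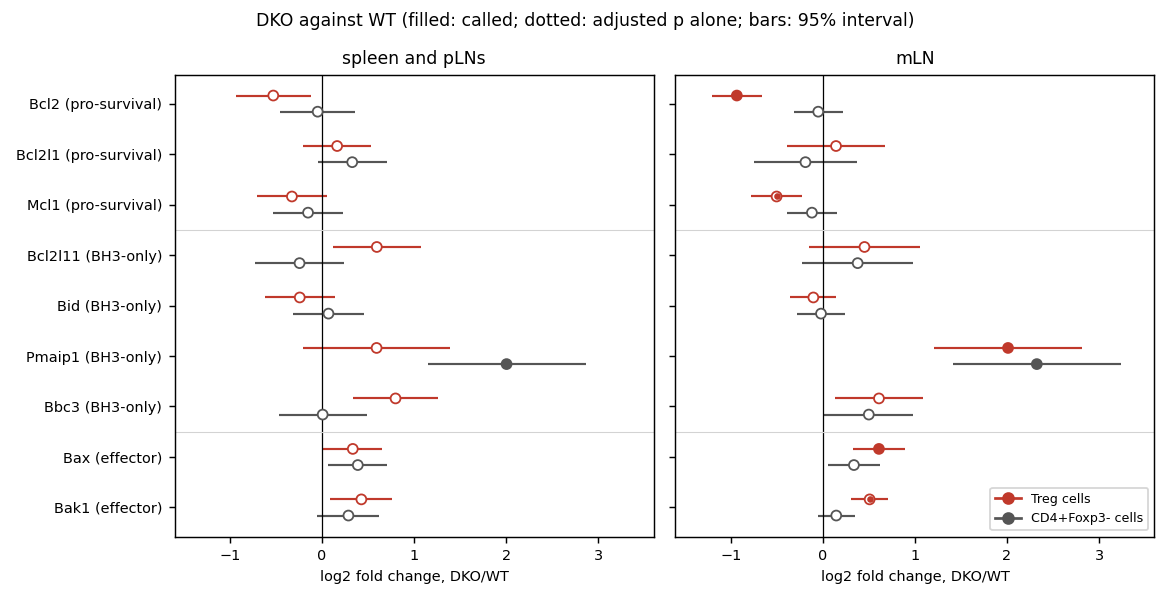
Log2 fold change of DKO against WT for the 9 genes in Treg cells (red) and CD4+Foxp3- cells (grey), with 95% intervals from edgeR, in spleen and pLNs (left) and mLN (right). Filled points were called, dotted points passed the adjusted p alone, and in mLN the intervals of Bcl2 in Treg cells (-1.204 to -0.66) and in CD4+Foxp3- cells (-0.32 to 0.22) do not meet.

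Whether the DKO effect differed between the cell types was tested as an interaction. By edgeR 0 of the 9 genes were called in either tissue, against 0.00611% of all genes in spleen and pLNs and 0.28% in mLN, with 3 and 2 of the 9 at an unadjusted p under 0.05. DESeq2 called Bcl2 in mLN. Bcl2 came nearest in edgeR's fit in mLN, where the DKO effect was lower in Treg cells by 0.88 on the log2 scale (interaction -0.88, SE 0.18, adjusted p = 0.0576). Same-numbered Treg and CD4+Foxp3- libraries deviated together in mLN, and with the replicate block the interaction of Bcl2 was -0.91 with an adjusted p of 0.0328, when 0.703% of all genes passed. It was also past the threshold without the first (-0.90, adjusted p = 0.0334) or second (-0.95, adjusted p = 0.0123) DKO CD4+Foxp3- library or the third DKO Treg library (-1.03, adjusted p = 0.0180), when 1.4%, 2.77% and 0.396% of all genes passed. Without any other single library Bcl2 was not past it, with edgeR adjusted p up to 0.178. Without both DKO libraries numbered 2, Bcl2 (-0.77), Bax (0.46) and Bak1 (0.42) were past it, as were 3.26% of all genes.

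For Pmaip1 the mLN interaction was -0.31 with a 95% interval of -1.51 to 0.88, so that a difference between the cell types was not detectable and a sizeable one was not bounded. Its sign rested on 1 library: without the second DKO CD4+Foxp3- library, the farthest from WT, it was 0.39, and leaving out any other library gave -0.69 to -0.18, none called. In spleen and pLNs the interactions of Bcl2l11 (0.84), Bbc3 (0.79) and Pmaip1 (-1.41) had unadjusted p of 0.0196, 0.0239 and 0.0211 and adjusted p of 0.902 each. Without the second DKO CD4+Foxp3- library these 3 genes were called (1.27, 1.076 and -1.99), along with 4.14% of all genes. Without the first DKO CD4+Foxp3- library, the farthest from WT, they were not called, at 0.50, 0.55 and -0.41. Without both DKO libraries numbered 1 Bcl2 (-0.68) and Bcl2l11 (0.67) were, along with 2.63%.

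Treg cells were also compared with CD4+Foxp3- cells within a genotype. Bcl2l1, the gene of BCL-XL, was the 1 gene called higher in Treg cells in all 4 comparisons. For WT cells of spleen and pLNs the count was 3 of 9 genes (Bcl2l1, Bid and Pmaip1, against 4.0% of all genes) and in mLN 2 of 9 (Bcl2l1 and Pmaip1, against 10.1%). In DKO cells 2 of 9 were called in spleen and pLNs (Bcl2l1 and Bbc3, against 3.77%) and 2 of 9 in mLN (Bcl2l1 and Pmaip1, against 11.2%). All these calls were higher in Treg cells. The comparisons with WT and DKO share libraries with those of DKO against WT above.

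In WT cells of spleen and pLNs Bcl2l1 stood at 77.7 and 73.0 CPM in Treg cells and at 39.0 and 33.8 CPM in CD4+Foxp3- cells (2.07-fold, log2 fold change 1.05, SE 0.17, edgeR adjusted p = 0.00431). In WT cells of mLN it stood at 38.5, 42.5 and 49.9 CPM and at 21.3, 24.98 and 26.5 CPM (0.85, SE 0.25, adjusted p = 0.0394). The cell types did not overlap in either tissue. In DKO cells the log2 fold changes were 0.89 (adjusted p = 0.0116) in spleen and pLNs and 1.18 (adjusted p = 0.00632) in mLN. By edgeR with the 2 groups compared, neither DKO difference was called, and by DESeq2 with them the one in spleen and pLNs was not. The WT calls lean on every library: leaving out any 1 gave adjusted p of 0.0587 to 0.141 in spleen and pLNs and 0.0631 to 0.144 in mLN, and the mLN call was also lost with the robust prior (adjusted p = 0.0760).

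Pmaip1 was higher in WT Treg cells than in WT CD4+Foxp3- cells in both tissues. It stood at 16.8 and 17.5 CPM against 5.54 and 4.98 CPM in spleen and pLNs (3.25-fold, log2 fold change 1.70, SE 0.39, edgeR adjusted p = 0.0304). In mLN it stood at 10.7, 11.7 and 9.05 CPM against 2.38, 3.31 and 2.19 CPM (3.92-fold, 1.97, SE 0.43, adjusted p = 0.00744). No library of one cell type reached the range of the other. The call in spleen and pLNs was lost without any 1 of the 4 WT libraries (adjusted p of 0.218 to 0.358) and with the replicate block (adjusted p = 0.0821), filterByExpr (0.118) or the robust prior (0.187), and that in mLN was kept without any 1. In DKO cells of mLN the log2 fold change was 1.66 (adjusted p = 0.0068, but 0.0777 by edgeR with the 2 groups compared). It was 2.35 without the second CD4+Foxp3- library, the farthest from WT, and at least 1.27 on leaving out any other. In DKO cells of spleen and pLNs it was 0.29, but 1.29 without the first CD4+Foxp3- library and -0.29 without the second.

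Bid was at 36.1 and 32.2 CPM in WT Treg cells and at 19.7 and 20.7 CPM in WT CD4+Foxp3- cells of spleen and pLNs (log2 fold change 0.76, SE 0.18, edgeR adjusted p = 0.0312). This call was lost without any 1 of the 4 libraries (adjusted p of 0.193 to 0.408) and with the replicate block (adjusted p = 0.0622). In mLN, WT Treg libraries at 24.9 to 29.3 CPM lay above WT CD4+Foxp3- libraries at 17.1 to 19.7 CPM, and the difference of 0.54 passed the adjusted p alone (0.00743), with a call at 0.60 without the second Treg library. In DKO cells of mLN the difference was 0.46 (adjusted p = 0.0158), and in DKO cells of spleen and pLNs 0.45 (adjusted p = 0.246).

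Bcl2 in mLN was past the adjusted p between the cell types in WT but not in DKO mice. In WT cells it was higher in Treg cells, at 232 to 249 CPM, than in CD4+Foxp3- cells, at 146 to 185 CPM (log2 fold change 0.56, SE 0.12, edgeR adjusted p = 0.00826, under the fold minimum). It was called without the second CD4+Foxp3- library (0.67, adjusted p = 0.00926) or the first Treg library (0.59, adjusted p = 0.022). In DKO cells the Treg libraries, at 102 to 150.4 CPM, were below the CD4+Foxp3- libraries, at 151 to 162 CPM (-0.32, SE 0.12, adjusted p = 0.0960) in CPM after TMM, but in deposited TPM the libraries overlapped (26.3 to 39.7 and 33.7 to 38.3 TPM) at a log2 ratio of -0.09. The test of the change between the genotypes is the interaction given above.

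Bbc3 was called higher in DKO Treg cells than in DKO CD4+Foxp3- cells of spleen and pLNs, at 27.1 and 32.6 against 9.61 and 13.9 CPM (2.55-fold, log2 fold change 1.35, SE 0.22, edgeR adjusted p = 0.00411), but not with the 2 groups compared (edgeR adjusted p = 0.0720). In WT cells of the same tissue it stood at 17.3 and 17.1 against 11.2 and 12.1 CPM (0.56, adjusted p = 0.247). Bak1 differed by 0.07 and 0.06 in WT cells of spleen and pLNs and of mLN, and by 0.42 in DKO cells of mLN (adjusted p = 0.00631, under the fold minimum). In DKO cells of spleen and pLNs its means were 121 CPM in Treg and 105 CPM in CD4+Foxp3- cells, not called. Bcl2l11 differed by -0.08 and 0.01 in WT cells and by 0.76 in DKO cells of spleen and pLNs (adjusted p = 0.0924). The latter was 1.19 without the second CD4+Foxp3- library and 0.42 without the first, the farthest from WT. In DKO cells of mLN Bcl2l11 ran from -0.33 to 0.39 on leaving out 1 library. Mcl1 differed by 0.48 (adjusted p = 0.201) in WT cells of spleen and pLNs, where Treg libraries lay above CD4+Foxp3- libraries, and by 0.31 (adjusted p = 0.138) in WT cells of mLN. In DKO cells its means in Treg and CD4+Foxp3- cells were 522 and 421 CPM in spleen and pLNs but 486 and 513 CPM in mLN.

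**Figure D4:**
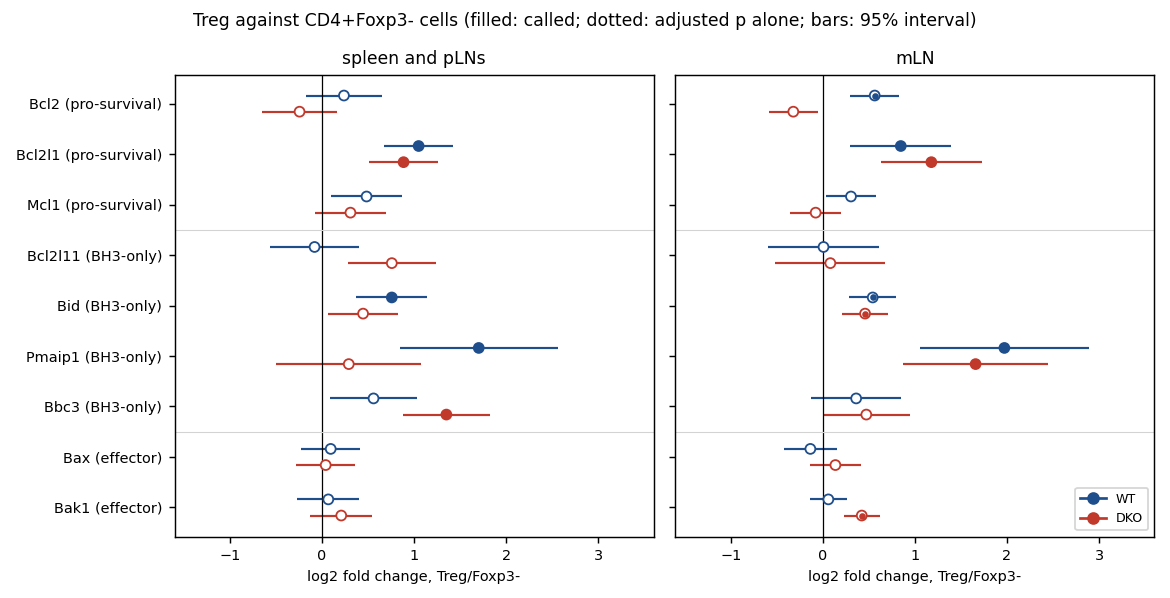
Log2 fold change of Treg against CD4+Foxp3- cells for the 9 genes in WT (blue) and DKO (red) mice, with 95% intervals from edgeR, in spleen and pLNs (left) and mLN (right), filled points called and dotted points past the adjusted p alone. Bcl2l1 is called at 0.85 to 1.18 in all 4 comparisons, and in mLN Bcl2 lies at 0.56 in WT and at -0.32 in DKO cells.

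Opposed genes were also set against each other within a library, as ratios of deposited TPM, a description with no test. Bcl2 to Bcl2l11, the pair of BCL2 and BIM, had a ratio of 1.35 to 1.48 in WT and 0.609 to 0.696 in DKO Treg cells of spleen and pLNs, and of 3.16 to 3.78 and 0.722 to 2.23 in mLN. In CD4+Foxp3- cells it was 1.12 to 1.14 in WT and 1.24 to 1.39 in DKO of spleen and pLNs, and 2.23 to 2.67 and 1.19 to 2.46 in mLN. DKO lay below WT in Treg cells of both tissues and above WT in CD4+Foxp3- cells of spleen and pLNs, and the ranges overlapped in CD4+Foxp3- cells of mLN. Mcl1 to Pmaip1, the pair of MCL1 and NOXA, had a ratio of 44.2 to 61.5 in WT and 6.29 to 12.2 in DKO Treg cells of mLN, and of 135 to 192 in WT and 13.6 to 67.2 in DKO CD4+Foxp3- cells of mLN. DKO libraries were below WT libraries in both cell types.

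The wider apoptosis pathway was read from lists written with earlier results of these data known, and each is described by counts and medians only. In mLN, 5 of the 10 other close BCL2 family genes were called higher in DKO Treg cells and 0 lower, against 8.5% and 3.43% of all genes, with a median log2 fold change of 1.204 against 0.0045 for all genes. They were Bcl2a1a, Bcl2a1b, Bcl2a1c and Bcl2a1d, copies of the gene of the pro-survival protein A1, and the BH3-only Bmf, so that 4 of the 5 calls came from A1 copies. Bcl2a1b rose from 55.3 to 59.2 CPM in WT to 108 to 176 CPM in DKO (1.22, SE 0.19, edgeR adjusted p = 0.00121), Bcl2a1a by 1.54 and Bcl2a1d by 1.60. The copies are near-identical, and reads kept at a single place may have been divided between them. Bmf rose by 1.19 (adjusted p = 0.0232), from 3.53 to 5.90 CPM to 8.86 to 12.9 CPM, and Bad passed the adjusted p alone at 0.48 (0.0236), while Bcl2l2 gave 0.34 (adjusted p = 0.455).

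The lists that follow are read against the 8.5% of all genes called higher and 3.43% called lower in mLN DKO Treg cells. Of 5 inhibitor of apoptosis genes 1 was called: Birc5, which is also a mitotic gene, rose by 1.53 (edgeR adjusted p = 0.000826). Of 11 death receptor genes 2 were called, as Casp8 (-0.60) and Tnfrsf1a (-0.71) fell, and Fas passed the adjusted p alone (-0.54, adjusted p = 0.0343). The list median was -0.21 for death receptor genes and -0.09 for inhibitors.

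Of 13 listed genes, transcription factors known to act on the family plus Mdm2, 3 were called: Foxo3 (-0.91, edgeR adjusted p = 0.00883) and Ddit3 (-0.88) fell and Hif1a (1.28) rose in mLN DKO Treg cells. Foxo1 gave -0.64 (adjusted p = 0.0853), Trp53, the gene of p53, -0.13 and its target Mdm2 -0.05, and these 3 were not called. Of 6 survival cytokine receptors 2 were called, as Il2ra (-1.12, adjusted p = 0.00516) and Il4ra (-1.0025) fell, and Il7r, the IL-7 receptor, stood at 109 to 134 CPM in WT and 90.1 to 198 CPM in DKO. Of 6 partners that act on the proteins 0 were called, with a median of -0.04, and of 9 distant BCL2 relatives 0 were called, with a median of 0.11.

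In spleen and pLNs the same lists gave 1 call in DKO Treg cells, against 1.74% of all genes: Myc (0.86, edgeR adjusted p = 0.0274), a transcription factor that can sensitize cells to death. The median of 11 other close BCL2 family genes was 0.81, with Bcl2a1a at 1.096, Bcl2a1b at 0.94 and Bcl2a1d at 1.14 (adjusted p of 0.0813, 0.0766 and 0.0631). All 6 cytokine receptors had log2 fold changes below 0, with a median of -0.40 and none called. In mLN CD4+Foxp3- cells of DKO mice, 3 of 10 other close family genes (Bcl2a1a, Bcl2a1b and Bcl2a1d, at 1.01, 0.97 and 1.076) and Hif1a (1.44) were called higher, beside Pmaip1, against 3.12% of all genes.

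**Figure D5:**
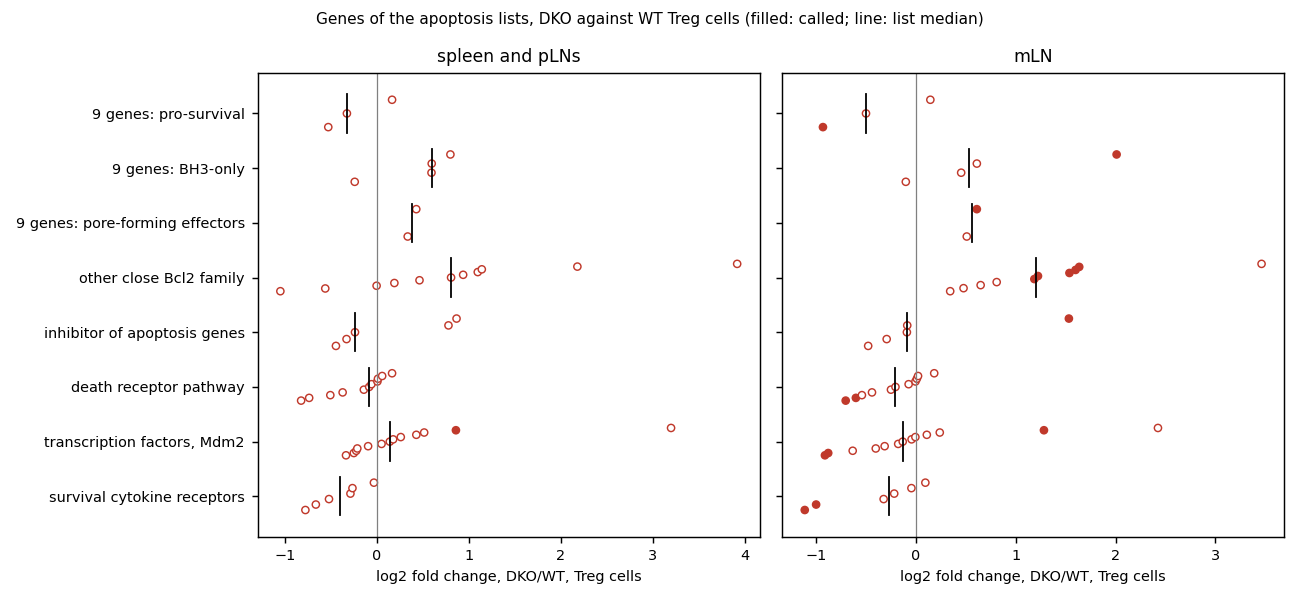
Log2 fold change of DKO against WT Treg cells for the genes of 8 lists (rows) in spleen and pLNs (left) and mLN (right), 1 point per gene, filled where called, with a line at the list median. In mLN the median of the pro-survival members lies to the left (-0.50) and those of the BH3-only members, the effectors and the other close family genes to the right (medians 0.53, 0.56 and 1.204), with the exceptions of Bcl2l1 at 0.14 and Bid at -0.10, neither called.

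The genes whose pattern over the 12 mLN libraries was most like each of the 9 were named by Pearson r of log2 CPM among 8410 genes averaging 10 CPM or more, a description without a test since libraries share groups. For Bcl2 these were Efr3a (r = 0.961), Rgs10 (0.932) and Ythdc1 (0.930), with r of 0.945, 0.722 and 0.144 over the 8 libraries of spleen and pLNs. For Mcl1 they were Socs1 (0.9751), Pik3r1 (0.943) and Cd274 (0.934), with 0.776, 0.750 and 0.954. For Pmaip1 they were Eea1 (0.988), Col4a3bp (0.988) and Aldh7a1 (0.987), with 0.784, 0.944 and 0.873. The nearest gene of the others was Ndufv2 for Bcl2l1 (0.954), Bub3 for Bcl2l11 (0.914), Gstp2 for Bax (0.977), Sirt2 for Bak1 (0.979), Psma3 for Bid (0.960) and Mlf2 for Bbc3 (0.948). In the other tissue r was 0.894 for Sirt2 with Bak1 but 0.508 for Ndufv2, -0.27 for Bub3, 0.406 for Gstp2, 0.237 for Psma3 and 0.141 for Mlf2. Of the 27 pairs named by this rule, 3 for each gene, 18 had r above 0.7 in spleen and pLNs. No share over all gene pairs stands beside this count, and libraries share groups in both tissues, so it does not measure agreement between them.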

How the data were processed

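RNA-seq was analysed for Treg and CD4+Foxp3- cells of WT and Tet2/3 DKO mice, in 8 libraries from spleen and pLNs and 12 from mLN. The deposited counts are reads of single-end stranded mRNA libraries aligned by the authors to mm9 (TopHat2 2.1.1, 1 alignment per read at most) and counted by strand on RefSeq genes with featureCounts (Subread 1.4.3-p1). How the authors derived the deposited TPM is not given in the sources used here. The 9 genes and the lists were chosen with earlier results of these data known.

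Counts were tested with edgeR 4.0.16 (limma 3.58.1, R 4.3.3): TMM, genes with at least 1 count in total (16357 and 16784), the 4 groups of a tissue in one quasi-likelihood fit without covariates, and Benjamini-Hochberg adjustment over all genes tested. Calls needed an adjusted p up to 0.05 and a fold of 1.5 or more, or for the interaction the adjusted p alone. The SE is the log2 fold change divided by the square root of F. The common biological coefficient of variation was 21.6% in spleen and pLNs and 17.7% in mLN. On simulated counts for DKO against WT Treg cells, 60 of 100 genes changed 2-fold and 97 of 100 changed 4-fold were recovered in spleen and pLNs (15790 genes), and 87 and 100 of 100 in mLN (16360 genes). The simulation gave all groups the same spread at a given level, whereas real DKO libraries lay farther apart than WT libraries. These shares therefore do not give the power of the real comparison. With 2 or 3 libraries per group, each p-value rests on a spread shared over the 4 groups of a tissue and partly across genes. It does not measure the spread of the compared groups alone. For DKO against WT CD4+Foxp3- cells of mLN, edgeR called 575 genes in this fit and 2 with the 2 groups compared. In spleen and pLNs it called 134 and 1. For WT Treg against CD4+Foxp3- cells of spleen and pLNs calls went the other way, from 654 to 2060.

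All 9 genes are described. Of each other list but that of the apoptosome and caspases, which is not reported here, counts, the median and at most the 4 called genes with the smallest p are named, plus Bcl2a1a, Bcl2a1b, Bcl2a1d, Bcl2l2, Bmf, Bad, Fas, Il7r, Trp53, Mdm2, Foxo1 and Foxo3. Pairing was checked by correlating the deviations of same-numbered libraries from their group means. In mLN, Treg and CD4+Foxp3- libraries gave r of 0.348, 0.399 and 0.425 in WT and of 0.138, 0.432 and 0.544 in DKO, so numbers were taken to pair the cell types there. The labels do not say that a number marks a mouse. Same-numbered WT and DKO libraries of mLN, which come from different mice, gave r of -0.0532 to 0.159 for Treg cells. For CD4+Foxp3- cells they gave 0.0434 to 0.234. Alternatives were DESeq2 1.42.0, its size factors, other filters and priors, fewer groups, a replicate block (number within genotype for the cell types and the interaction) and leaving out libraries. Leaving out both DKO libraries of 1 number was chosen after seeing the data. Coordinates come from NCBIM37, with GENCODE M1 for annotation. Python 3.11.15, pandas 2.3.3, numpy 2.4.6 and matplotlib 3.10.9 were used.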

Additional observations from a re-analysis of the deposited data

Results flagged for a closer look

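The DKO effect on Bcl2 in mLN was lower in Treg than in CD4+Foxp3- cells. In edgeR's fit this interaction was not called (-0.88, adjusted p = 0.0576). Once Treg and CD4+Foxp3- libraries of the same number were blocked, it was -0.91 (edgeR adjusted p = 0.0328). It was called under 6 of 18 alternatives, with adjusted p up to 0.178 among the others. The pairing was taken from these data, as the labels do not give it.

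In CPM after TMM, Bax in WT mice was higher in Treg than in CD4+Foxp3- cells of spleen and pLNs in every library (log2 fold change 0.094) and lower in every library of mLN (-0.14). In deposited TPM the mLN libraries overlapped, at a log2 ratio of -0.013. The difference between the tissues was not tested, neither value passed edgeR's adjusted p (0.866 and 0.567), and the libraries of the 2 cell types did not overlap for 55.3% and 41.5% of all genes.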

How the results depend on the processing

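Numbers of the 9 genes called are given as the value in the report followed by those that differ from it by over 1.5 times. DKO against WT Treg cells in spleen and pLNs gave 0, but 1 by DESeq2 with 4 groups, 1 by edgeR and 1 by DESeq2 with the 2 groups compared, and 2 without both DKO libraries numbered 1. DKO against WT CD4+Foxp3- cells in spleen and pLNs gave 1, but 0 with filterByExpr, with the robust prior and by edgeR with the 2 groups compared, and 0 to 2 on leaving out 1 library. Treg against CD4+Foxp3- cells in spleen and pLNs gave 3 in WT, but 0 on leaving out any 1 library, and 2 in DKO, but 0 by edgeR and 1 by DESeq2 with 2 groups (2 to 3 on leaving out 1 library). The interaction there gave 0, but 0 to 3 on leaving out 1 library and 2 without both DKO libraries numbered 1. In mLN, DKO against WT Treg cells gave 3, but 5 with no fold minimum (2 to 4 on leaving out 1 library), and CD4+Foxp3- cells gave 1, but 0 by edgeR with 2 groups and 0 to 1 on leaving out 1 library. Treg against CD4+Foxp3- cells in mLN gave 2 in WT, but 1 with the robust prior, 4 with no fold minimum and 1 to 2 on leaving out 1 library, and 2 in DKO, but 0 by edgeR with 2 groups and 4 with no fold minimum (2 to 3 on leaving out 1 library). The interaction in mLN gave 0, but 1 by DESeq2, 3 without both DKO libraries numbered 2 and 0 to 1 on leaving out 1 library. The cause was not tested. With 1 library left in a group, its spread is assumed to be that of the other groups.

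The replicate block gave 1 for the interaction in mLN (Bcl2, at -0.91), where numbers were taken to pair the cell types, and changed no other call of that pairing. In spleen and pLNs the sources do not tie a number to a mouse, and WT and DKO libraries share only a number. There the block gave 0 for DKO against WT CD4+Foxp3- cells and 1 for WT Treg against CD4+Foxp3- cells in spleen and pLNs, and added Bbc3 (0.60, adjusted p = 0.0402) for DKO against WT Treg cells in mLN.

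Of the fold changes of the 9 genes under alternatives, 1201 stayed on their side of the threshold, 42 lost and 35 gained a call, and 0 calls turned. Il7r, the receptor of IL-7, turned in the interaction in spleen and pLNs (-0.43, adjusted p = 0.0267, without both DKO libraries numbered 1). Depth limits Pmaip1 most, at 2.19 to 3.31 CPM in WT CD4+Foxp3- cells of mLN, against a floor of 3 counts at 0.203 to 0.299 CPM there.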
